A study of Homo sapiens with 8 samples.

Results

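The glyoxalase pathway genes comprise 5 genes, GLO1, HAGH, HAGHL, LDHD and PARK7, out of 14812 genes with a symbol on the array. They were chosen by symbol, 1 row of the deposited table carried each symbol, and the 5 genes also passed the filter on dim genes. Methylglyoxal is a reactive aldehyde that forms from the triose phosphates of glycolysis and modifies proteins and DNA. The glyoxalase pathway clears it: methylglyoxal binds glutathione, glyoxalase I (GLO1) rearranges the adduct to S-D-lactoylglutathione, and glyoxalase II (HAGH) releases D-lactate and gives the glutathione back. D-lactate is then oxidised to pyruvate in mitochondria by D-lactate dehydrogenase (LDHD).

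The cultures came from 4 human myeloma lines (KMS11, OPM2, KMS18 and KMS34) that share the t(4;14) translocation, which places NSD2 (also called MMSET) under immunoglobulin heavy chain control. In each line 1 culture carried shRNA against MMSET I, a short isoform of NSD2, and 1 culture was a control, giving 4 knockdown and 4 control arrays. Both kinds of culture were infected with lentivirus in medium with 8 µg/mL polybrene and collected 48 h after the virus was washed away, whereas the design text of the series mentions 72 h with shRNAs and KMS11 alone. What the control virus carried, whether infected cells were selected, and any repeat culture of a line are not given in the sources used here. Each line thus contributes 1 pair of cultures. For each gene, limma combines the spread between lines with variance information pooled over all tested genes. Its p-values therefore do not measure the gene's own spread between lines alone.

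The values are intensities on a linear scale as deposited, compared after log2 transformation. Across 11109 genes, arrays of the same line correlated at 0.991 to 0.993 and arrays of different lines at 0.880 to 0.915. Of the plasma cell and myeloma markers, 9 of 11 were measured, with summed intensities of 10228 to 13347 in knockdown arrays and 10206 to 13143 in control arrays. SDC1, IRF4, XBP1, SLAMF7, MZB1, NSD2 and FGFR3 had at least 549 on every array, while CD27 (56.2 to 86.6) and CD38 (50.6 to 416) came close to the limit of 46.7 for dim genes. Of other cell types, 3 of 7 T and NK, 6 of 7 myeloid and 1 of 6 stromal and endothelial markers were measured. The T and NK markers summed to 184 to 208 in knockdown arrays and 167 to 199 in control arrays, and the stromal and endothelial one, VWF, had 51.3 to 62.3 and 49.5 to 54.8. The myeloid markers summed to 873 to 1122 and 839 to 1009, of which CST3 alone made up 587 to 870, with CSF1R at 66.8 to 86.6 and MPO at 48.6 to 62.6 over the limit and LYZ, CD14 and S100A8 below it. The targeted gene was lower in 4 of 4 knockdown cultures: NSD2 had 670, 549, 677 and 728 in knockdown arrays of KMS11, KMS18, KMS34 and OPM2, against 733, 680, 744 and 814 in the control arrays. That is a log2 difference of -0.18 ± 0.064 (SE), which was not called by limma (adjusted p = 0.472). The NSD2 row combines the short isoform with the longer ones, which limits what it can show of the knockdown.

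Because GLO1 is the gene the series title names and the member with the largest difference, the 250 bases before its transcription start are shown (RefSeq, GRCh38.p14, chr6:38703146-38703395, minus strand, written 5′ to 3′). Capitals mark an AP-1 site, TGACTCA, and CCAAT boxes, one on each strand.
GLO1: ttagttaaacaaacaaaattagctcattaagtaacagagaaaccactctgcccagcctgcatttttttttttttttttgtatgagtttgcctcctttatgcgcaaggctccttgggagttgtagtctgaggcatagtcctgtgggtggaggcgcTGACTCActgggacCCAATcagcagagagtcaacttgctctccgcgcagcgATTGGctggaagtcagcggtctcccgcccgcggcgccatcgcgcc
Searched on both strands, the AP-1 site begins 96 bases before the start, the CCAAT boxes 82 and 45 bases before it and a GC box, GGGCGG, 22 bases before it, and none of these overlap. TGACTCA occurred in 4.2% of 35116 promoter windows of the same length, CCAAT in 32.0% and GGGCGG in 42.6%. The core of the antioxidant response element, TGACNNNGC, and the E-box CACGTG were not in this window, and occurred in 10.9% and 6.34% of all windows. RefSeq windows were matched for 3 of the 5 genes. The window of HAGH held 3 CCAAT boxes and that of PARK7 1 TGACNNNGC, and HAGHL and LDHD had no entry. The arrays measure RNA and not binding, so these matches describe the sequence only.

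The first comparison set the knockdown cultures against the control cultures of the same lines. Effects of the shRNA other than loss of MMSET I were not tested. GLO1, the entry enzyme of the pathway, was 40.8% lower on average and was lower in each line. LDHD, the last enzyme of the pathway, was higher in each line by a smaller amount that did not pass over all genes. HAGH, HAGHL and PARK7 had mean differences close to 0. Of the 5 genes, 1 passed limma's threshold as lower and 0 as higher, where 0.099% of 11109 genes passed as lower and 0.018% as higher. At an unadjusted p under 0.05 were 2 of the 5, against 8.41% of all genes. Since the genes were chosen with earlier results known, these shares describe the list and do not test it.

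**Figure D1:**
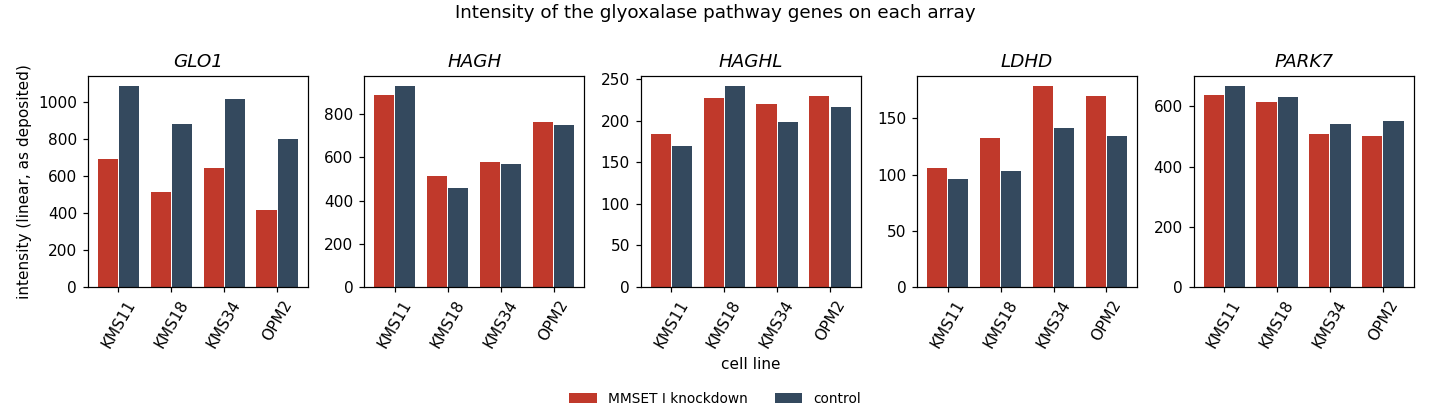
Deposited intensity (vertical axis, linear, starting at 0) of the 5 genes in the 4 lines (horizontal axis), 1 array per bar, knockdown in red and control in dark blue. GLO1 bars of the knockdown arrays, 416 to 694, all stand below those of the control arrays, 799 to 1086, while the HAGH bars differ mainly between lines.

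GLO1 had intensities of 694, 514, 641 and 416 in the knockdown arrays of KMS11, KMS18, KMS34 and OPM2, against 1086, 882, 1015 and 799 in the control arrays. The groups did not overlap, and even the brightest knockdown array, that of KMS11, lay below the dimmest control array, that of OPM2. Such a separation was seen downward in 0.234% of the tested genes and upward, which none of the 5 pathway genes showed, in 0.189%. The knockdown cultures thus held 52.1% of the control level in OPM2, 58.3% in KMS18, 63.1% in KMS34 and 63.9% in KMS11. On average GLO1 fell by 0.76 on the log2 scale (SE 0.0689, 95% interval -0.91 to -0.61, limma adjusted p = 0.00142), the lowest p of the 11109 genes. The adjusted p ranged from 0.00195 to 0.0396 when a line was left out, and GLO1 missed the threshold without the cell line in the model (adjusted p = 1) and in an ordinary paired test (0.483). The exact two-sided permutation test within lines gave p = 0.125, the smallest it can give with 4 pairs.

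Within each line, where a single pair of arrays allows no test, GLO1 was among the genes with the lowest differences. It ranked 1 from the bottom of 11109 in OPM2, 3 in KMS18, 6 in KMS34 and 16 in KMS11. The order of the lines was the same in both groups, with KMS11 highest, followed by KMS34, KMS18 and OPM2. The lines spanned 1.67-fold in the knockdown arrays and 1.36-fold in the control arrays. OPM2, the line with the least GLO1 in its control culture, also had the largest difference, -0.94. In NSD2 it was KMS18 that had the largest difference, -0.31, against -0.16 in OPM2. In bulk RNA, less GLO1 RNA in every cell and its loss from some of the cells cannot be told apart.

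HAGH, the glyoxalase that follows GLO1, had 888, 512, 580 and 761 in the knockdown arrays of KMS11, KMS18, KMS34 and OPM2, against 929, 457, 569 and 750 in the control arrays. The groups overlapped along nearly their whole range, and HAGH was lower in KMS11 and higher in the other 3 lines. The mean difference was 0.04 (SE 0.0645, limma adjusted p = 0.913, exact permutation p = 0.625), and without KMS18 it was -0.0066. As a ratio of knockdown to control, its 95% interval ran from 0.930 to 1.13, so a loss of the size seen for GLO1, whose ratio was 0.592 (0.533 to 0.656), lies outside it.

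HAGHL encodes a paralogue of HAGH whose own substrate is less well defined. It had 184, 228, 221 and 229 in knockdown arrays of KMS11, KMS18, KMS34 and OPM2, against 169, 242, 199 and 217 in control arrays. The groups overlapped, with KMS18 lower and the other 3 lines higher. The mean difference was 0.07 (SE 0.0655, 95% interval -0.08 to 0.21, limma adjusted p = 0.816). HAGH and HAGHL had opposite signs in KMS11 (-0.07 and 0.12) and in KMS18 (0.16 and -0.09), differences within single lines that have no test.

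LDHD had 106, 133, 179 and 170 in knockdown arrays of KMS11, KMS18, KMS34 and OPM2, against 96.2, 103, 141 and 134 in control arrays. Every knockdown culture was brighter than the control of its own line, but the groups overlapped because the lines differ in level. The mean difference was 0.30 (SE 0.0654, 95% interval 0.15 to 0.44), a ratio of 1.23. It ranked 38 of 11109 by unadjusted p (0.000705), and it did not pass over all genes (limma adjusted p = 0.203, and 0.113 to 1 over the alternatives). The difference was 0.36 in KMS18, 0.34 in KMS34, 0.34 in OPM2 and 0.14 in KMS11. These are ranks 139, 193, 241 and 2168 from the top of the tested genes. Differences at least as large in size as that of LDHD were seen in 0.522% of the genes. The lowest of its 8 values, 96.2 in the control array of KMS11, lay above the limit of 46.7 for dim genes.

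PARK7 encodes DJ-1, a redox-sensitive protein for which glyoxalase and deglycase activities that need no glutathione have been described and disputed. It had 638, 615, 510 and 502 in the knockdown arrays of KMS11, KMS18, KMS34 and OPM2, against 668, 631, 542 and 552 in the control arrays. It was a little lower in 4 of 4 lines, with differences from -0.04 in KMS18 to -0.13 in OPM2, and the groups overlapped. The mean difference was -0.08 (SE 0.0609, 95% interval -0.21 to 0.05, limma adjusted p = 0.760). Of the 5 genes, 2 (GLO1 and PARK7) were lower in 4 of 4 lines and 1 (LDHD) was higher, against 8.76% and 8.29% of all tested genes. The exact permutation p was 0.125 for LDHD and PARK7 and 0.375 for HAGHL.

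**Figure D2:**
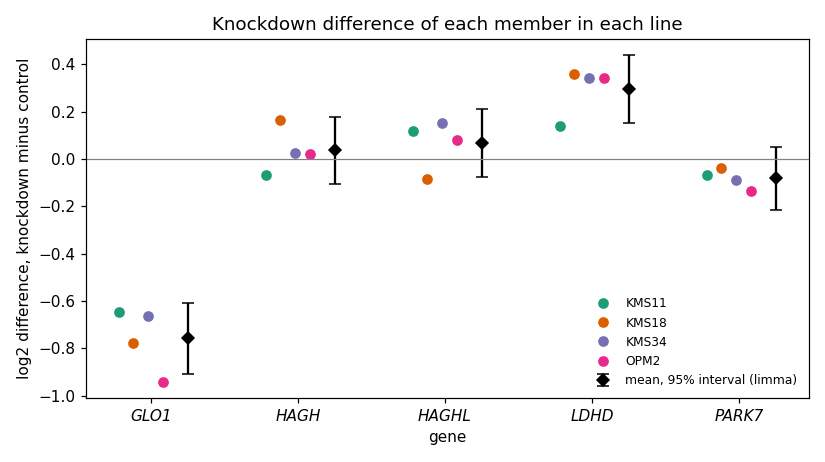
Log2 difference, knockdown minus control, of the 5 genes, with a coloured point per line and a black diamond for the mean with its 95% interval from limma. The GLO1 points lie between -0.94 and -0.65 and its interval below those of the other 4 genes, and LDHD has an interval above 0 (0.15 to 0.44) with KMS11 apart at 0.14.

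**Figure D3:**
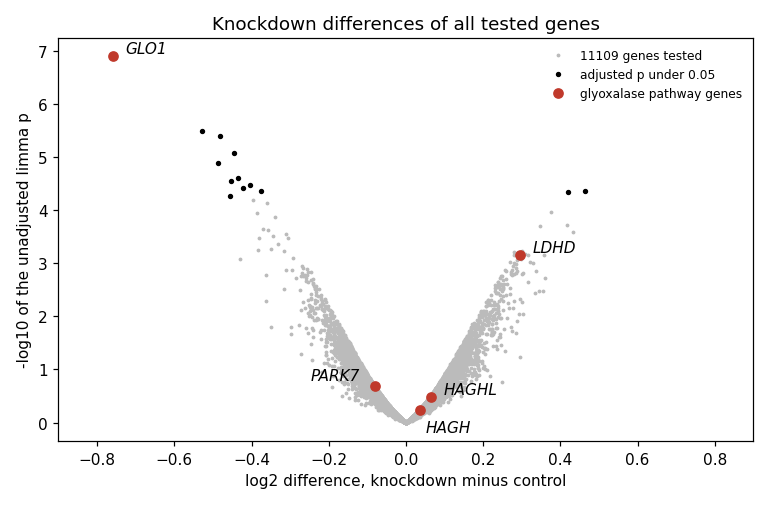
Mean log2 difference (horizontal axis) against -log10 of the unadjusted limma p (vertical axis) for the 11109 tested genes in grey, with genes past the adjusted threshold in black and the 5 pathway genes in red. GLO1 stands alone at the upper left at -0.76, LDHD lies on the right at 0.30, and HAGH, HAGHL and PARK7 lie among the bulk of the genes.

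The level of the pathway genes was then compared between the lines. Each of the 5 differed between lines by limma's moderated F test, HAGH with the widest range and PARK7 with the narrowest. The share of 5 in 5 stands against 75.7% of all tested genes, so differing between lines was common on these arrays. The adjusted p was 8.8e-06 for HAGH, 0.000106 for LDHD, 0.000572 for GLO1, 0.00731 for HAGHL and 0.0085 for PARK7. HAGHL did not pass without KMS11 (adjusted p = 0.313). The residual of the F test is the spread of the knockdown differences over lines, moderated by limma over all tested genes. It rests on 1 pair of cultures per line.

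HAGH spanned 1.88-fold over the line means of both arrays, a range of 0.91 log2 units that 22.2% of genes reached. Its level was 908 in KMS11, 756 in OPM2, 575 in KMS34 and 484 in KMS18 as geometric means, and each neighbour in this order differed from the next (limma adjusted p = 0.0270, 0.00334 and 0.0414). Over the 6 pairs of lines, HAGH passed in 6, GLO1, LDHD and PARK7 in 4 each and HAGHL in 3. For KMS11, 3 of the 5 genes passed against KMS18 (56.5% of all genes), 4 against KMS34 (42.2%) and 5 against OPM2 (54.7%). For KMS18, 4 passed against KMS34 (47.5%) and 3 against OPM2 (38.9%), and KMS34 against OPM2 gave 2 (49.9%). The members' share was above that of all genes in 5 pairs and below it in 1, with only 5 genes behind each count.

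HAGHL ran in another order than HAGH. Its geometric means were 235 in KMS18, 223 in OPM2, 209 in KMS34 and 176 in KMS11, so KMS11 was highest in HAGH and lowest in HAGHL, and KMS18 the reverse. For HAGHL KMS18, OPM2 and KMS34 did not differ from their neighbours (adjusted p = 0.604 and 0.434), and KMS11 lay below KMS34 (0.0487).

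LDHD was highest in KMS34 (159) and OPM2 (151), which did not differ (adjusted p = 0.545). It was lower in KMS18 (117, adjusted p = 0.00671 against OPM2) and at 101 in KMS11, which did not pass against KMS18 (0.0652). GLO1 had 868 in KMS11, 806 in KMS34, 674 in KMS18 and 577 in OPM2. KMS34 and KMS18 differed (adjusted p = 0.0443), while KMS11 and KMS34 (0.417) and KMS18 and OPM2 (0.0920) did not pass. PARK7 split into a brighter pair, KMS11 (653) and KMS18 (623), and a dimmer pair, OPM2 (526.4) and KMS34 (525.5). Within each pair the lines did not pass (adjusted p = 0.529 and 0.985), and KMS18 differed from OPM2 (0.0404).

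Set against these line differences, the knockdown difference of GLO1 was the larger. Its line means spanned 0.59 log2 units, 0.780 times the size of its knockdown difference. A knockdown difference above the range of line means was seen in 113 of 11109 genes (1.02%). For the other members the range of lines was 2.21 times the size of the knockdown difference in LDHD, 3.84 times in PARK7, 6.23 times in HAGHL and 25.2 times in HAGH. A range over 4 line means and a mean of 4 differences are not the same kind of quantity, and noise alone widens the range.

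**Figure D4:**
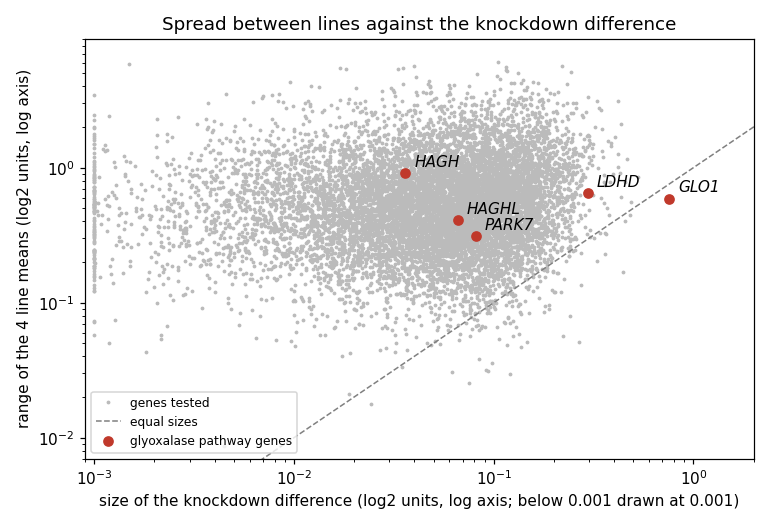
Size of the mean knockdown difference (horizontal) against the range of the 4 line means (vertical), both in log2 units on log axes, for the tested genes in grey and the 5 pathway genes in red, with a dashed line where both are equal. GLO1 lies just below the dashed line (0.76 against 0.59), and HAGH far above it (0.04 against 0.91).

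Genes with the most similar profile over the 8 arrays were looked up for each member among 10005 tested genes. Symbols of microRNAs, small, LINC and antisense RNAs, LOC entries and open reading frames were left out. The 8 arrays share 4 lines and differ by the knockdown, so a likeness can come from either, and the correlations are given without a test. GLO1 was followed most closely by EEF2K, the kinase of elongation factor 2 (Pearson's r of log2 values 0.947), RRP1B, a nucleolar protein gene (0.924), and the kinase gene MAP3K3 (0.911). Their knockdown differences were -0.19 (limma adjusted p = 0.444), -0.44 (0.0422) and -0.46 (0.0473), so RRP1B and MAP3K3 passed and EEF2K did not. A lower value is built into a choice by likeness to GLO1, so these are a description. For HAGH they were ESS2 (0.992), the dipeptidase gene CNDP2 (0.9895) and the KDEL receptor gene KDELR1 (0.989). PARK7 was nearest to TPRG1L (0.990), the spliceosomal GTPase gene EFTUD2 (0.983) and the homeobox gene HOXB7 (0.977). LDHD was nearest to DENR, which acts in translation reinitiation (0.960), the ribosomal protein gene RPS21 (0.939) and RTL9 (0.935), and HAGHL to ETV2 (0.974), PPIAP46 (0.973) and DRD1 (0.972).

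Genes around the pathway were read from 8 lists with 86 genes, of which 42 had a named row above the limit for dim genes. None of the 42 passed limma's threshold over all genes (0 higher, 0 lower), and 5 had an unadjusted p under 0.05 (11.9%). Over all tested genes the shares were 0.117% and 8.41%. Their differences ran from -0.19 to 0.18 with a median of -0.03, against a median of -0.0033 over all tested genes. None of these 42 had a difference near the size of that of GLO1, while the other 44 listed genes were not tested here, most of the aldo-keto reductases and aldehyde dehydrogenases among them. Most of the 44 had no row with their symbol rather than a dim row, so their absence says nothing of their expression. Of all tested genes, 51.6% had a mean below 0 and 48.4% above, and the sign counts that follow are descriptions of small lists without a test.

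The glutathione genes had means below 0 in 5 of 5 tested members, with a median of -0.07. GSS, the glutathione synthetase that makes the cofactor of GLO1 and HAGH, had 315, 202, 279 and 289 in knockdown arrays of KMS11, KMS18, KMS34 and OPM2, against 357, 234, 322 and 323 in control arrays. It was lower in each line by a similar amount, with a mean of -0.19 that did not pass (limma adjusted p = 0.425). OPLAH, the 5-oxoprolinase of glutathione recycling, had a difference of -0.08. Among 6 tested genes of the list of NRF2, a regulator of antioxidant genes, with its partners and targets, 4 were below 0, with the heme oxygenase gene HMOX1 at -0.19 (adjusted p = 0.459) and the thioredoxin reductase gene TXNRD1 at -0.14 (0.594). The transcription factor gene NFE2L2 itself stood at 0.05.

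Upstream of the pathway, the 3 tested glycolytic genes had means below 0. TPI1, which interconverts the triose phosphates from which methylglyoxal arises, had a difference of -0.13 (limma adjusted p = 0.675) and GAPDH one of -0.05. Of the enzymes that clear methylglyoxal in other ways, ALDH2 was the 1 tested gene of 15 listed, at -0.07 (0.883), with KMS11 apart from the other lines at -0.52. Downstream, 6 of 7 tested genes of the lactate and pyruvate list were below 0, with 0 of 7 at an unadjusted limma p under 0.05. The 6 include D2HGDH, a D-2-hydroxyglutarate dehydrogenase gene, at -0.0058. The mitochondrial pyruvate carrier gene MPC2 had a difference of -0.15 (0.626) and LDHB, an L-lactate dehydrogenase subunit, one of -0.11 (0.670), whereas LDHD stood above 0.

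Relatives of GLO1 and HAGH by protein fold were above 0 in 7 of 9 tested genes, with a median of 0.05. GLOD4, a glyoxalase domain protein gene, had 287, 126, 212 and 173 in knockdown arrays of KMS11, KMS18, KMS34 and OPM2, against 249, 109, 190 and 158 in control arrays. It was higher in each line, with a mean of 0.18 that did not pass (limma adjusted p = 0.475), and MBLAC2 followed at 0.12 (0.651). In the glutathione transferase and formaldehyde list, GSTK1 stood at 0.15 (0.578) and GSTO1 at -0.14 (0.675). Of 6 tested genes of the list on glycation repair and recognition, 4 were above 0. DDOST stood at 0.08 (0.773) and FN3KRP, a kinase that frees glycated amines, at 0.06 (0.830). The 4 include the DNA repair gene OGG1, at 0.04, which does not act on glycated proteins.

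**Figure D5:**
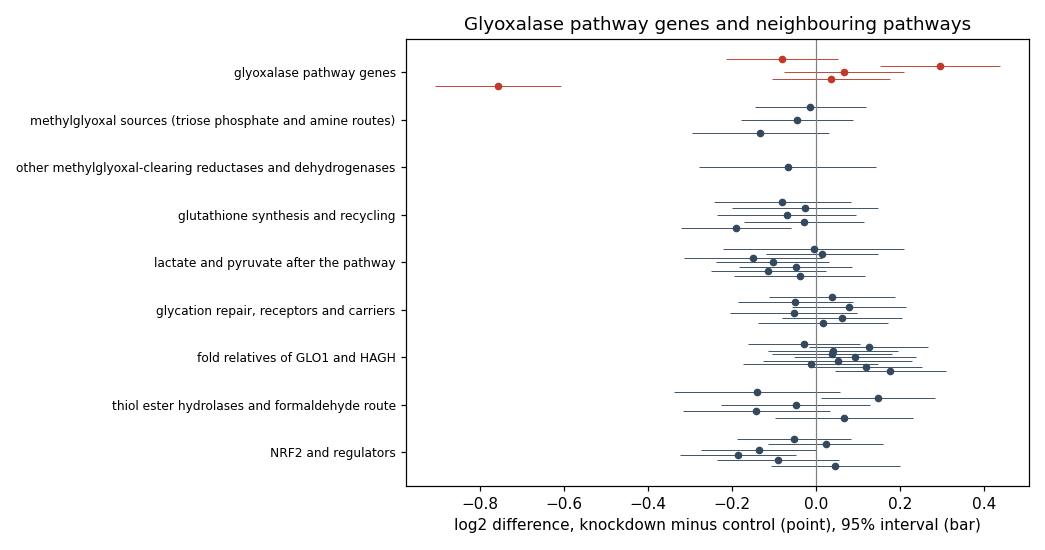
Log2 difference, knockdown minus control, with the 95% interval from limma (horizontal axis) for the 5 pathway genes in red, at the top, and for the 42 tested genes of 8 neighbouring lists in dark blue, 1 list per row. The dark points lie between -0.19 and 0.18, GLO1 lies apart at -0.76 and LDHD at 0.30.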

How the data were processed

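The authors deposited intensity values on a linear scale, 1 per array and transcript cluster of the Affymetrix GeneChip Human Gene 2.0 ST array, which carries 1 sample in 1 colour, and used GeneSpring, per the series text. Background correction, summarization and scaling are not given in the sources used here. The medians of 49.3 to 53.5 point to a common scaling, which would hide a shift of all genes, and without detection calls nothing is said of background. The small number of arrays limits the precision.

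Of 44629 rows, 15835 had 1 gene symbol, 0 several and 28794 none. Genes were represented by their brightest row (14812 genes), those with a mean log2 value under the 25th percentile (5.54) were left out, and the log2 values of 11109 genes went into limma 3.58.1 (R 4.3.3, lmFit and eBayes), with a fixed term for the cell line and Benjamini-Hochberg adjustment over all tested genes at 0.05. Lines were compared in the same fit. The pairing is that of cell lines in the labels: deviations from the group mean correlated at 0.925 to 0.932 within a line and at -0.135 at most across lines. Centring on the group mean pushes values across lines below 0 on average, so their sign alone does not show the pairing. The fit was also run on simulated data, and the outcome is not reported here. Members and lists were chosen with earlier results of these data known. Named were the members, NSD2, the 2 genes per list with the lowest p and the 3 nearest profiles per member; the cell type markers and NFE2L2 named singly were added after their values were seen. Alternatives changed the scaling, filter, rows, block, test and lines.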

Additional observations from a re-analysis of the deposited data

Results flagged for a closer look

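Of 48 sets of 4 values screened, 3 held a line far from the other 3, where chance alone gives about 1 in 20 (2.4). In LDHD the knockdown difference of KMS11 was 0.14, against 0.34 to 0.36 in the other lines. In ALDH2 it was KMS11 again, at -0.52, against 0.06 to 0.11. In DDOST it was KMS18, at -0.0196, against 0.10 to 0.12. Each of these values comes from 1 pair of arrays, and what sets the line apart was not tested. The 3 flags do not list every such line among the tested genes. GSTM4, which is not among them, stood at 0.26 in KMS11, against -0.30 to -0.24 in the other lines.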

How the results depend on the processing

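The difference of GLO1 kept its sign in all 16 alternatives and its call in 14. Without the replicate block for cell line it was -0.76 and did not pass (adjusted p = 1), nor did it in the ordinary paired test, at -0.76 (0.483), which has fewer degrees of freedom. Leaving out a line gave -0.79 to -0.70. The difference of HAGH ranged from -0.0066, without KMS18, to 0.0702, without KMS11, and passed in none of the 16. HAGHL (0.04 to 0.12), LDHD (0.27 to 0.35) and PARK7 (-0.10 to -0.06) kept their sign and did not pass in any of the 16. Over all genes the knockdown gave 13 calls, against 4 without a filter on dim genes, 1 over all rows of the table, 3 with line as a random block and 29 with trend and robust eBayes. It gave 0 without the replicate block (18 at an unadjusted p under 0.05) and 0 in the ordinary paired test (823). Leaving out KMS11 or KMS34 left 2 calls each, and leaving out KMS18 or OPM2 left 1. Between lines 8412 of 11109 genes passed, and 17968 of 33472 when all rows were tested, which are more rows. The cause of the other changes was not tested.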
